A study of Mus musculus with 6 samples.

Results

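The kidney endothelium of the 3 control mice of the series, on a high-fat diet, is described here from 3 of the 6 deposited libraries. The members are the 3 libraries labelled as control mice 1, 2 and 3, chosen by their labels and by no measured value, and within them the 21923 protein-coding genes on nuclear chromosomes, of 55487 genes in the table. The mice were wild-type littermates of mice with endothelial I-PpoI expression, and the labels do not say whether they carried the Cre transgene. They were moved from chow to a diet with 60% of its energy from fat at 8 weeks of age and fed it for 4 weeks. Whole kidneys were digested with collagenase, cells were taken with magnetic beads against CD31 (Pecam1), and RNA of 1 mouse made 1 library. No chow-fed group is described here, so no value below is an effect of the diet.

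The kidney has several vascular beds in series. Blood enters through arteries and arterioles, is filtered in fenestrated glomerular capillaries, and then runs through peritubular capillaries of the cortex or through the descending and ascending vasa recta of the medulla into veins. Endothelial cells of these beds share a core programme of junction proteins, receptors and ETS and SOX transcription factors, and each bed adds genes of its own. CD31 also sits on platelets and on some leukocytes, so a CD31 sort can hold these cells, and any sort from digested kidney can hold tubule and mural cells or their free RNA.

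Values are FPKM, fragments per kilobase of exon, scaled to library size, which can be compared between genes because they are per length. A row of 3 values gives control mice 1, 2 and 3, in that order, and an error is the SD over these libraries (n = 3). Whole fragments recovered from the FPKM came to 16158350, 14081222 and 16954480, of which nuclear protein-coding genes held 88.8%, 82.4% and 79.5% and mitochondrial genes 8.83%, 15.1% and 18.3%. In bulk RNA, fewer cells of a type and less RNA per cell cannot be told apart.

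The label was first checked against 7 endothelial genes. Pecam1, the sorted surface protein (ENSMUSG00000020717, GRCm38 chromosome 11, 106654217 to 106750628), was at 256, 197 and 237 FPKM. Cdh5, the endothelial cadherin of adherens junctions (ENSMUSG00000031871, chromosome 8, 104101625 to 104144511), was at 328, 266 and 327 FPKM. Both stood among the first 100 genes by mean FPKM, at ranks 95 and 58. Emcn, a sialomucin of capillary and venous endothelium (ENSMUSG00000054690, chromosome 3, 137341067 to 137432185), was at 243, 389.9 and 259 FPKM. Plvap, the protein of fenestral diaphragms (ENSMUSG00000034845, chromosome 8, 71497765 to 71511752), was at 276, 310.3 and 328 FPKM. Diaphragm-bearing peritubular capillaries and veins are its usual site, while mature glomerular endothelium has little of it. Ehd3, an endocytic ATPase used as a glomerular endothelial marker (ENSMUSG00000024065, chromosome 17, 73804134 to 73832094), was at 215, 214 and 221 FPKM. Its CV over the libraries, 1.73%, was the smallest of these 7. Sox17, an arterial transcription factor (ENSMUSG00000025902, chromosome 1, 4490931 to 4497354), was at 159.9, 138 and 113 FPKM. Aqp1, a water channel (ENSMUSG00000004655, chromosome 6, 55336432 to 55348555), was at 407, 447 and 604 FPKM and ranked 27th. It is made by descending vasa recta and also by proximal tubule, so it does not mark 1 cell type alone. Every library therefore held all 7 markers at more than 100 FPKM, and the data do not go against the label.

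The bases before the start sites of 6 endothelial genes, Emcn, Ehd3 and Aqp1 of these 7, the receptor genes Eng and Tie1 and the peritubular gene Igfbp5, are shown to set regulatory sequence beside the levels. They are the 150 bases upstream of RefSeq transcript starts (GRCm38.p6), read 5′ to 3′ on the gene's strand, and capitals mark AGGAAG or its reverse complement CTTCCT, a core that ETS factors can bind. RefSeq starts can differ from the gene limits of the deposited table, and the windows of Ehd3 and Tie1 lie inside those limits.
Eng, chr2:32646445-32646594, plus strand: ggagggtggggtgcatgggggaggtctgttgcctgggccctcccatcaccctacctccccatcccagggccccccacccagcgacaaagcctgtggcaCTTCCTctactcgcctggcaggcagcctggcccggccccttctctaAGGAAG
Emcn, chr3:137340928-137341077, plus strand: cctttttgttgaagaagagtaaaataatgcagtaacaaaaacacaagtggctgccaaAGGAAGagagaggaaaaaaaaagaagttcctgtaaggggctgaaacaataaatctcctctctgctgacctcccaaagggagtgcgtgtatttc
Aqp1, chr6:55336149-55336298, plus strand: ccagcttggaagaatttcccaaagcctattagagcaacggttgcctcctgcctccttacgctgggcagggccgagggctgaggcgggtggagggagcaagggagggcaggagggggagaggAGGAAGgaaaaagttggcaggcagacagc
Tie1, chr4:118489850-118489999, minus strand: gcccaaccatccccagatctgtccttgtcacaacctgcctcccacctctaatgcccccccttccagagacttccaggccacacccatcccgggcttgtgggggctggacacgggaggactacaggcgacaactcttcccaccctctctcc
Ehd3, chr17:73804691-73804840, plus strand: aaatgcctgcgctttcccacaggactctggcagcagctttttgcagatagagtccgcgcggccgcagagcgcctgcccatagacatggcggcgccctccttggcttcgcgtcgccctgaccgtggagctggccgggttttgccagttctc
Igfbp5, chr1:72874866-72875015, minus strand: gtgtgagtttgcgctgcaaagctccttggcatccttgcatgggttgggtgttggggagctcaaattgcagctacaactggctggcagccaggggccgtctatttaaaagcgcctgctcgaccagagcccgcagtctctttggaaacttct
Eng held 2 such matches, Emcn 1 and Aqp1 1, and Tie1, Ehd3 and Igfbp5 held 0 in these 150 bases.

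Over promoters of 250 bases before to 50 after the start, AGGAAG on either strand was found in 61.1% of the 18 promoters (14 genes) matched for the endothelial identity list. It was found in 35.4% of all 32851 promoters of the table and in 33.3% of the 11123 promoters of genes at 1 FPKM or more in every library. Ribosomal protein genes, which are not endothelial, held it in 54.1% of 74 promoters. TATAAA was in 18.8% of the 85 promoters matched for the first 100 genes by mean FPKM and in 7.03% of those of all expressed genes, and GGGCGG in 63.5% and 64.1%. A match of letters is a description of the window and not a binding site. No entry was matched for Cdh5, Pecam1, Plvap and Sox17.

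A count of 10830 nuclear protein-coding genes reached 1 FPKM in each of the 3 libraries, 49.4% of them, and 5634 were listed at 0 in every library. The median of the 10830 was 7.84 FPKM, the quartiles were 3.78 and 17.3, and 334 genes had a mean of 100 or more. The first 10 genes of each library held 4.22%, 5.43% and 4.34% of summed nuclear protein-coding FPKM, and the first 100 held 18.4%, 22.1% and 19.4%. The highest mean of a single gene was 1886 FPKM.

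The most abundant gene was B2m, the light chain of MHC class I, at 1439, 2417 and 1803 FPKM. The heavy chain gene H2-D1 ranked 7th at 683, 862 and 697 FPKM, and the interferon-inducible membrane protein gene Ifitm3 ranked 8th at 639, 919.7 and 655 FPKM. Translation was represented by Eef1a1, an elongation factor, at 1078, 1682 and 1259.8 FPKM and by the ribosomal stalk gene Rplp1 at 592, 2043 and 681 FPKM, with control 2 above both others for each. Ly6a and Ly6c1, surface antigens of endothelial and haematopoietic cells, were at 706, 989.5 and 711 and at 642, 821 and 629 FPKM. Cytoskeletal genes Actb and Tmsb4x were at 724, 965 and 631 and at 539, 918 and 520.1 FPKM.

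Among the 25 genes of highest mean, several have known endothelial or matrix roles. Eng, the TGF-beta co-receptor endoglin, was at 622, 688 and 608 FPKM with a CV of 6.69%. Podxl, a sialomucin of the endothelial and podocyte surface, was at 940.5, 549 and 590.3 FPKM, and control 1 was above the other 2. Igfbp7 and Igfbp5, secreted binding proteins of insulin-like growth factors, were at 854, 582 and 522 and at 652, 555 and 713 FPKM. Timp3, a matrix metalloproteinase inhibitor, was at 561, 393 and 538 FPKM, and the phosphatase gene Plpp1, whose enzyme cleaves lipid phosphates, at 509, 786 and 534 FPKM. Slc9a3r2 (a PDZ scaffold), Txnip (a thioredoxin-binding protein), Laptm4a, Itm2b, Ubb, Ftl1, Ptma, Tpt1 and Rps15 fell between 502 and 723 FPKM on average. Gpx3, the secreted glutathione peroxidase that proximal tubule makes in quantity, ranked 4th at 1254, 1254 and 623 FPKM. Of the first 100 genes, 16 were ribosomal protein genes by name, 12 stood on an endothelial list and 5 on a list of another cell type.

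**Figure D1:**
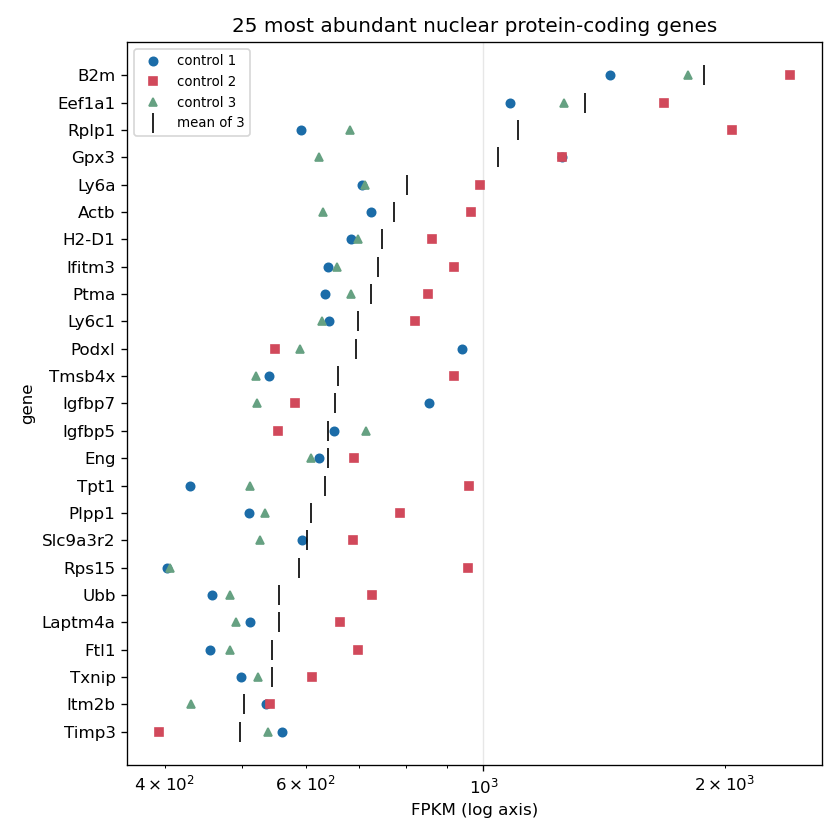
FPKM (log axis) of the 25 nuclear protein-coding genes of highest mean in control kidney endothelium; circles, squares and triangles are control mice 1, 2 and 3 and the tick is their mean. B2m and Eef1a1 lie above 1000 FPKM in every library, Rplp1 spreads from 592 to 2043 FPKM, and Eng has 3 values within 608 to 688 FPKM.

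Genes that share sequence with near-identical copies are uncertain in such a table. Gapdh, a glycolytic gene used as a reference and known for many processed pseudogenes, was listed at 2.04, 2.11 and 2.68 FPKM, while Actb and Eef1a1 were in the first 10. How multi-mapped reads were counted is not given in the sources used here, and their part in this value was not tested.

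All 28 members of the endothelial identity list reached 1 FPKM in every library, against the 49.4% of all nuclear protein-coding genes, with a median of 125 FPKM. The summed list was at 4535, 4789 and 4226 FPKM, a CV of 6.25%. Receptors were prominent in it. Tie1 and Tek, the angiopoietin receptor pair, were at 225, 193 and 202 and at 161, 124 and 149 FPKM, Kdr, the main VEGF receptor, at 127, 157 and 140.3 FPKM and Flt1, the VEGF receptor that acts as a trap, at 62.02, 49.9 and 61.3 FPKM. The tight junction gene Cldn5 was at 354, 394 and 242 FPKM, and control 3 was the lowest. Vwf, the von Willebrand factor gene that is high in large vessels, was the lowest of the list at 17.2, 6.82 and 17.4 FPKM, and Fli1 and Erg, ETS factors, were at 21.2, 24.01 and 20.6 and at 49.6, 31.8 and 45.4 FPKM. Control 2 was at least 2-fold below both others for 2 of the 28, Vwf and Ptprb, against 2.19% of all genes averaging 1 FPKM or more. Ptprb, the endothelial receptor phosphatase that acts on Tek, was at 156, 71.5 and 148 FPKM.

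Glomerular endothelial genes were all present, 11 of 11 at 1 FPKM or more in every library, with a median of 42.4 FPKM. The share to set beside each such count, here and below, is the 49.4% of all nuclear protein-coding genes. Some lists of other cells were as fully present, with 7 of 7 loop of Henle and 4 of 4 podocyte genes, so presence alone does not mark a bed. Plat, the tissue plasminogen activator gene, was the highest at 313, 399 and 353 FPKM. Pi16, a peptidase inhibitor, was at 139, 168 and 111 FPKM and Smad6, an inhibitory SMAD of BMP signalling, at 103, 112 and 72.2 FPKM. Transcription factors of this bed were at 26.97, 41.5 and 28.05 FPKM for Gata5, 46.3, 41.1 and 39.7 for Tbx3 and 4.59, 3.80 and 4.80 for Prdm1. Sost, the WNT inhibitor sclerostin, was at 47.9, 45.3 and 30.8 FPKM, and Lpl, the lipoprotein lipase gene, at 41.4, 35.6 and 28.05 FPKM. The summed list differed little between libraries, at 1038, 1188 and 986 FPKM, or 22.9, 24.8 and 23.3% of the endothelial identity sum.

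Arterial and arteriolar genes were also all present, 18 of 18, with a median of 58.5 FPKM. Sema3g, an arterial semaphorin, was at 455, 211 and 305 FPKM, and Ltbp4, which holds latent TGF-beta in elastic matrix, at 366, 192 and 287 FPKM. The arterial gap junction genes Gja4 and Gja5 were at 126, 148 and 94.9 and at 62.5, 58.2 and 51.4 FPKM. The Notch ligands Dll4 and Jag1 were at 61.1, 63.00 and 55.03 and at 111, 60.2 and 83.6 FPKM, and Efnb2, the arterial ephrin, at 100.0, 95.4 and 97.4 FPKM. The lowest 3 were Hey2 at 9.86, 7.15 and 6.76 FPKM, Bmx at 14.7, 8.50 and 11.4 FPKM and Hey1 at 17.1, 22.7 and 13.9 FPKM. Control 1 was the highest library for 14 of the 18, against 49.2% of all 11487 genes averaging 1 FPKM or more, and for 11 against 31.7% with median-of-ratios scaling of the libraries. Mural genes stood high in the same library, as given below, and Ltbp4, Fbln5, Jag1 and Cxcl12 are also made by mural or stromal cells; their part in the arterial values was not tested.

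Peritubular capillary genes, 8 of 8 present, had a median of 28.8 FPKM and a wide range. Igfbp5 and Plvap led, followed by Igfbp3 at 75.02, 75.5 and 80.9 FPKM and Esm1, a proteoglycan of VEGF-exposed endothelium, at 36.04, 53.4 and 53.2 FPKM. The apelin pair was low, with the receptor Aplnr at 1.69, 2.80 and 2.89 and Apln at 1.32, 2.87 and 1.46 FPKM. Npr3, the natriuretic peptide clearance receptor, was at 18.6, 5.06 and 6.28 FPKM. Control 1 was at least 2-fold above both others for this 1 of the 8, against 1.18% of all genes averaging 1 FPKM or more. Podocytes make Npr3 as well, and podocyte genes were high in the same library, but their part in this value was not tested.

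Genes of ascending vasa recta and veins were present for 6 of 8 members, with a median of 10.1 FPKM. Gas6, a ligand of TAM receptors, was at 186, 208 and 161 FPKM and Ephb4, the venous ephrin receptor, at 63.02, 63.4 and 53.7 FPKM. Nr2f2, the venous transcription factor COUP-TFII, was at 10.5, 10.1 and 7.74 FPKM. The 2 members not at 1 FPKM in every library were Selp, the P-selectin gene of venules, at 0.996, 0.113 and 0.655 FPKM, and Ackr1, the venular chemokine receptor, at 0, 0.253 and 0 FPKM. Ackr1 rested on 0, 5 and 0 fragments, and a count of 0 allows up to 3.

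Descending vasa recta genes were present for 8 of 8 members, with a median of 35.02 FPKM. After Aqp1 came Crip1 at 59.3, 114 and 46.8 FPKM, Scin, an actin-severing protein, at 50.8, 43.7 and 65.2 FPKM and Slc14a1, the urea transporter UT-B of this bed, at 41.1, 38.7 and 51.5 FPKM. Akr1b3, aldose reductase, and Hpgd, the prostaglandin-degrading enzyme, were at 18.3, 36.2 and 24.2 and at 13.3, 18.1 and 19.5 FPKM, and S100a4 was the lowest at 1.91, 4.26 and 2.22 FPKM. Control 3 was the highest library for 5 of 8, against 12% of all genes, and for 5 against 27.1% with median-of-ratios scaling.

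Lymphatic endothelial genes had 3 of 7 members at 1 FPKM in every library, beside 49.4% of all nuclear protein-coding genes. Their median was 1.09 FPKM. Prox1, the lymphatic master regulator, was at 0.538, 0.423 and 0.668 FPKM on 73, 50 and 95 fragments, and Lyve1 at 0.827, 1.02 and 1.44 FPKM. Flt4, at 19.9, 14.6 and 20.9 FPKM, and Pdpn, at 14.1, 8.41 and 5.42 FPKM, were higher, and fenestrated blood capillaries also use Flt4 and podocytes also make Pdpn. The third member present in every library was Ccl21a, a chemokine of lymphatic endothelium and lymphoid stroma, at 3.98, 11.6 and 8.14 FPKM; near-identical gene copies make its value uncertain.

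**Figure D2:**
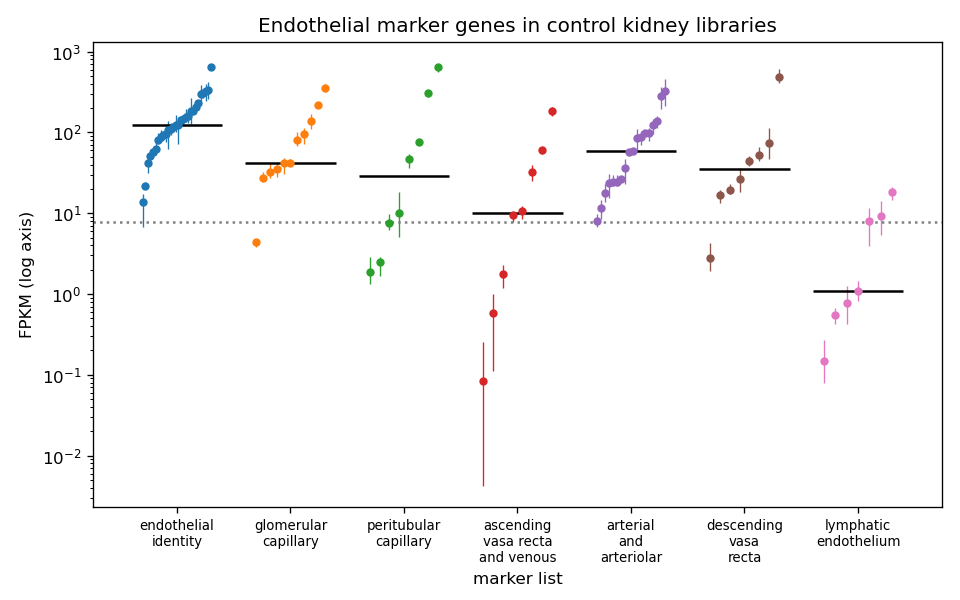
FPKM (log axis) of the members of the endothelial identity list and 6 vascular bed lists; each point is a gene's mean over 3 control mice, its bar runs from the lowest to the highest library, the black line is the median of the list and the dotted line the median of all expressed genes (7.84 FPKM). Glomerular, arterial and descending vasa recta medians lie between 35.0 and 58.5 FPKM, the lymphatic median is 1.09 FPKM, and the lower end of the Ackr1 bar stands for a value of 0, which a log axis cannot show.

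Transcription factors were ranked next, with the classes taken from the functional terms of the deposited table after the data were seen. Of 1080 genes with a transcription factor term, 513 reached 1 FPKM in every library, 47.5%, beside 49.4% of all genes. Klf2, the flow-responsive factor of endothelium, led at 346, 524 and 362 FPKM, followed by Jund at 317, 450.1 and 369 FPKM. Epas1, the hypoxia factor HIF-2 alpha, was at 496, 262 and 358 FPKM and Sox18 at 336, 423 and 259 FPKM. Among 25 endothelial factors listed, 23 were present. Ets2 and Elk3, of the ETS family, were at 71.3, 73.8 and 73.3 and at 64.4, 67.1 and 59.4 FPKM, and Gata2 at 44.3, 42.3 and 34.9 FPKM. Meox2 and Nkx2-3, factors of other vascular beds, were the 2 below 1 FPKM, with means of 0.0971 and 0.0572 FPKM.

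The positional Hox code of the trunk was present in 12 of 13 list members. Hoxa7, Hoxb9 and Hoxd8 were at 26.2, 34.2 and 23.2, at 23.2, 24.4 and 30.00 and at 24.3, 23.5 and 17.9 FPKM. Hoxd10 and Hoxc9 were at 3.03, 3.83 and 2.96 and at 3.54, 2.95 and 1.82 FPKM, and Hoxd3 was the lowest at 0.443, 0.170 and 0.0985 FPKM.

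Of 1523 genes with a G protein-coupled receptor term, many of them olfactory, 55 reached 1 FPKM in every library, or 3.61%, beside 49.4% of all genes. The adhesion receptors Adgrf5, Adgre5 and Adgrl4 led at 181, 123 and 177, at 167, 161 and 134 and at 169.8, 134 and 158 FPKM. S1pr1, the sphingosine-1-phosphate receptor of endothelial barrier function, followed at 91.7, 109.9 and 129.8 FPKM, and F2r, the thrombin receptor PAR1, at 98.7, 98.2 and 95.8 FPKM. In the list of growth factor and peptide receptors, 22 of 22 were present, and their sum had a CV of 2.71%. Calcrl and Ramp2, which together form the adrenomedullin receptor, were at 124, 106 and 119 and at 79.98, 108 and 75.9 FPKM. The BMP receptor Acvrl1 was at 116, 109 and 102 FPKM and Nrp1, a VEGF and semaphorin co-receptor, at 105, 114 and 103 FPKM. Ptger4, at 5.02, 3.57 and 3.54 FPKM, and Nrp2, at 5.51, 4.07 and 6.22 FPKM, were among the lowest.

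Of 130 genes with a growth factor term, 43 were present, 33.1% beside 49.4% of all genes. Pdgfb, the endothelial signal to pericytes, led at 123, 123 and 94.3 FPKM. Vegfa was at 104, 48.1 and 39.4 FPKM and was highest in control 1; podocytes are a known source of Vegfa, and podocyte genes were high in that library, but their part in this value was not tested. A cytokine term was carried by 172 genes, of which 34 were present, 19.8% beside 49.4% of all genes. Cx3cl1, the membrane chemokine fractalkine, was not the highest of them, at 64.8, 75.1 and 65.8 FPKM.

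In the list of fenestrae, caveolae and glycocalyx 16 of 17 members were present, and Has2, a hyaluronan synthase, was listed at 0 in every library. The caveolar genes Cavin1, Cavin2 and Cav1 were at 278, 171 and 199, at 136, 137 and 149 and at 105, 91.5 and 100.3 FPKM. Hspg2, the perlecan gene, was at 64.5, 54.7 and 69.8 FPKM and the syndecans Sdc4 and Sdc1 at 114, 105 and 72.2 and at 12.5, 10.3 and 9.62 FPKM. Of 21 junction and adhesion genes 19 were present. The catenin Ctnnb1 and the immunoglobulin-like adhesion protein Icam2 were at 195, 162 and 189 and at 139, 198 and 135 FPKM. Ocln, the occludin gene of tight barriers, was at 0.806, 1.57 and 1.43 FPKM, and the inducible selectin Sele at 1.59, 2.71 and 1.97 FPKM.

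In hemostasis, Thbd, thrombomodulin, was at 299, 205 and 264 FPKM and Plau, urokinase, at 75.4, 116 and 128 FPKM. Of 13 genes of this list 12 were present, and Serpinc1, antithrombin, was at 0.188, 0.175 and 0.0967 FPKM. Among vasoactive genes, Ece1, the endothelin-converting enzyme, was at 122, 103 and 107 FPKM, Nos3, endothelial nitric oxide synthase, at 119, 75.4 and 91.9 FPKM and Ace at 36.8, 20.2 and 29.5 FPKM. Ptgs1, the constitutive cyclooxygenase, was at 13.1, 16.9 and 13.2 FPKM against 2.53, 1.61 and 2.67 FPKM for the inducible Ptgs2.

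Basement membrane and matrix genes were all present, 18 of 18. Sparc and Mgp, matrix-binding secreted proteins, were at 386, 408 and 363 and at 249, 247 and 189 FPKM. The collagen IV chains Col4a1 and Col4a2 were at 199, 95.3 and 189 and at 129, 63.2 and 115 FPKM. Control 2 was the lowest library for 16 of 18, against 41.6% of all genes. Long genes as a whole were low in control 2, as given below. With that length trend removed, control 2 was the lowest for 13 of 18, against 39.8% of all genes. Col4a3 and Col4a4, chains that podocytes supply to the glomerular membrane, were at 37.1, 6.46 and 12.8 and at 23.4, 6.40 and 12.9 FPKM, with control 1 the highest. The part of podocytes in these values was not tested.

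Fatty acid handling genes, chosen because of the diet, were present for 16 of 17 members with a median of 12.5 FPKM. Fabp4, a fatty acid chaperone, was the highest on average at 34.9, 89.7 and 44.8 FPKM. Control 2 was at least 2-fold above both others for 3 of the 16 members with a mean of at least 1 FPKM, Fabp4, Fabp5 and Gpihbp1, against 2.56% of all genes. Cd36, the fatty acid translocase, was at 24.8, 40.1 and 33.1 FPKM and Gpihbp1, which anchors lipoprotein lipase to capillaries, at 12.6, 37.95 and 14.7 FPKM. Cpt1a, the mitochondrial carnitine transferase, was at 26.3, 17.9 and 24.1 FPKM and Pparg at 3.65, 4.24 and 4.68 FPKM. Short genes as a whole were high in control 2, as given below, and the part of gene length in these 3 was not tested.

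Proliferation genes were present for 4 of 10 members, beside 49.4% of all nuclear protein-coding genes, with a median of 1.02 FPKM. Mki67 was at 1.10, 1.43 and 1.52, Top2a at 0.577, 1.17 and 0.943 and Ccnb1 at 0.338, 0.438 and 0.168 FPKM. Pcna, which also serves DNA repair, was at 24.96, 35.03 and 26.03 FPKM. Immediate early and heat shock genes, which tissue digestion can induce, were all present, 20 of 20, with a median of 76.9 FPKM. Fos and Jun, partners in the AP-1 factor, were at 217, 122 and 284 and at 235, 166 and 349 FPKM. The inducible chaperones Hspa1b and Hspa1a were at 213, 117 and 274 and at 169.6, 87.7 and 223 FPKM, and Egr1 and Fosb at 54.3, 35.4 and 87.4 and at 47.2, 24.5 and 82.9 FPKM. Control 3 was the highest library for 16 of the 20, against 12% of all genes, and control 2 the lowest for 16, against 41.6%. With median-of-ratios scaling these counts were 17 against 27.1% and 14 against 42.5%.

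Markers of other cell types were present and differed in kind. Proximal tubule genes were the largest group by summed FPKM, at 2042, 2907 and 1327, with 22 of 23 members at 1 FPKM in every library. The lists differ in size and this was the longest, so sums do not rank the cell types. Gpx3 and Kap, an androgen-regulated tubule protein, made up most of that sum. Kap was at 134, 755 and 165 FPKM, so control 2 stood at 4.58 and 5.65 times the other 2. Other members of this list were far lower: the median member was at 10.8 FPKM, the phosphate transporter Slc34a1 at 67.3, 70.8 and 32.2 FPKM, the glucose transporter Slc5a2 at 29.2, 24.6 and 13.03 FPKM, and Cubn, the endocytic receptor cubilin, at 1.22, 1.15 and 1.17 FPKM. The defining factor Hnf4a was at 3.44, 3.69 and 4.25 FPKM. Control 2 was the highest library for 17 of 23 members, against 38.8% of all genes, and control 3 the lowest for 14, against 42%. With median-of-ratios scaling these counts were 18 against 41.2% and 12 against 25.1%.

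Loop of Henle genes were present for 7 of 7, led by Umod, uromodulin, at 92.2, 123 and 142 FPKM, with Slc12a1, the target of loop diuretics, at 20.6, 22.3 and 23.9 FPKM. In the distal nephron, Slc12a3, the thiazide-sensitive transporter, was at 18.2, 5.60 and 8.83 FPKM, and the collecting duct water channel Aqp2 at 50.9, 96.00 and 60.8 FPKM. Intercalated cell genes, 5 of 5 present, summed to 18.3, 19.3 and 25.9 FPKM, with Slc4a1, which red cells also carry, at 4.47, 4.94 and 10.5 and Foxi1 at 3.33, 2.23 and 4.73 FPKM.

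Podocyte genes separated control 1 from the other 2 libraries. Nphs1, nephrin of the slit diaphragm, was at 56.6, 9.25 and 8.81 FPKM, on 6057, 862 and 989 fragments. Control 1 stood at 6.12 and 6.42 times the other 2. The podocyte factor Wt1 was at 20.02, 5.57 and 4.24 FPKM, the phosphatase Ptpro at 25.4, 5.74 and 4.77 and Synpo, synaptopodin, at 122, 47.9 and 76.3 FPKM. Control 1 was the highest for 4 of 4 members, against 49.2% of all genes averaging 1 FPKM or more. It was at least 2-fold above both others for 3, against 1.18% of those genes. Rhpn1 and Ddn, also known in podocytes, were at 32.3, 8.47 and 4.79 and at 32.8, 9.02 and 7.01 FPKM. Both were picked for standing highest in control 1, so their side adds nothing to the list. Cdkn1c, also known in podocytes and picked for standing lowest in control 3, was at 143, 62.8 and 29.6 FPKM. Summed podocyte FPKM was 0.215, 0.0577 and 0.0955 times the summed glomerular endothelial FPKM. Its mean of 129 FPKM became 81.3 without control 1. Podocyte levels thus differed between the libraries while glomerular endothelial sums stayed within 986 to 1188 FPKM.

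Mural and renin cell genes were the second group by mean sum, at 1192, 913 and 825 FPKM, with 9 of 10 members present. By median member the order differed, with 65.2 FPKM for mural, 42.2 FPKM for erythroid and 10.8 FPKM for proximal tubule genes. Acta2, smooth muscle actin, was at 345, 276 and 223 FPKM, Rgs5, a pericyte signalling regulator, at 273, 153 and 180.1 FPKM and Myh11, smooth muscle myosin, at 144, 38.6 and 79.4 FPKM. Ren1, renin of the juxtaglomerular cell, was at 93.2, 197 and 149 FPKM and ran the other way, with control 1 the lowest. Control 1 was the highest library for 7 of the 9 members with a mean of at least 1 FPKM, against 49.2% of all genes, and for 7 against 31.7% with median-of-ratios scaling. The pericyte potassium channel Kcnj8 was at 0.316, 1.23 and 0.787 FPKM. Fibroblast genes were low, with Col1a1 at 1.33, 0.715 and 1.60 and Pdgfra at 5.72, 1.64 and 2.50 FPKM. Dcn was at 0.424, 0.840 and 0.697 and Lum at 0, 0.0581 and 0 FPKM. Tcf21, which podocytes also make, was at 16.8, 6.81 and 1.76 FPKM. Of the 5 fibroblast members with a mean of at least 1 FPKM, control 1 was at least 2-fold above both others for 3, against 1.18% of all genes. Control 3 was the highest library for 2 of these 5, against 12% of all genes.

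Macrophage and monocyte genes separated control 1 in the other direction. The complement genes C1qa, C1qb and C1qc were at 3.57, 60.7 and 61.9, at 5.12, 47.7 and 58.1 and at 1.25, 24.4 and 28.3 FPKM, and C1qa rested on 60, 888 and 1091 fragments. The values of C1qa in controls 2 and 3 were 16.99 and 17.3 times that in control 1. Lyz2, lysozyme, was at 3.39, 22.03 and 24.3, Adgre1, the F4/80 antigen, at 0.497, 3.56 and 8.00 and Cx3cr1, the fractalkine receptor, at 0.220, 2.43 and 3.40 FPKM. Control 1 was at least 2-fold below both others for 8 of the 9 members with a mean of at least 1 FPKM, against 1.09% of all genes. Control 3 was at least 2-fold above both others for 1 of them, Adgre1, against 0.357% of all genes. The member that was not low in control 1, Mrc1, was at 11.3, 4.67 and 7.42 FPKM, and is also a gene of some endothelium. The integrin Itgam was at 0.0616, 0.141 and 0.235 FPKM.

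MHC class II genes followed the macrophage pattern. Cd74, the invariant chain, was at 117, 486 and 657 FPKM, H2-Aa at 14.2, 78.9 and 94.6, H2-Ab1 at 21.9, 96.1 and 107 and H2-Eb1 at 24.5, 139 and 168 FPKM. Control 1 was at least 2-fold below both others for these 4 of the 12 antigen presentation genes, against 1.09% of all genes. H2-K1, at 336, 514 and 375 FPKM, and the peptide transporter gene Tap1, at 12.5, 14.2 and 12.7 FPKM, were also lowest in control 1, but by less than 2-fold. Control 1 was the lowest library for 9 of the 12, against 16.4% of all genes. With median-of-ratios scaling it was the lowest for 12, against 32.4%. B cell genes were present in every library, 4 of 4, with Cd79a at 12.96, 21.6 and 25.5 and Ms4a1 at 2.98, 1.96 and 4.55 FPKM, and B cells carry class II as well. Whether macrophages, B cells or endothelial cells held the class II RNA was not tested.

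Other blood cells were scarce apart from red cells. The beta globin Hbb-bs was at 310.0, 427 and 115 and the alpha globin Hba-a1 at 271, 405 and 97.1 FPKM; their near-identical copies make the split between copies uncertain. Control 3 was at least 2-fold below both others for 5 of the 5 erythroid members with a mean of at least 1 FPKM, against 0.575% of all genes. None of the 6 T cell genes reached 1 FPKM in every library (Cd3e at 0.243, 0.453 and 0.781 FPKM), and the same held for the 4 natural killer cell and the 5 neutrophil genes, with Ly6g on 0, 0 and 1 fragments. Platelet genes, of interest because platelets carry CD31, were low, but Pf4 at 1.55, 12.5 and 2.62 and Ppbp at 1.09, 5.25 and 1.04 FPKM were highest in control 2, which was at least 2-fold above both others for 3 of the 4 members with a mean of at least 1 FPKM, against 2.56% of all genes. The 4 adipocyte genes, Adipoq, Plin1, Cidec and Lep, were listed at 0 in every library.

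**Figure D3:**
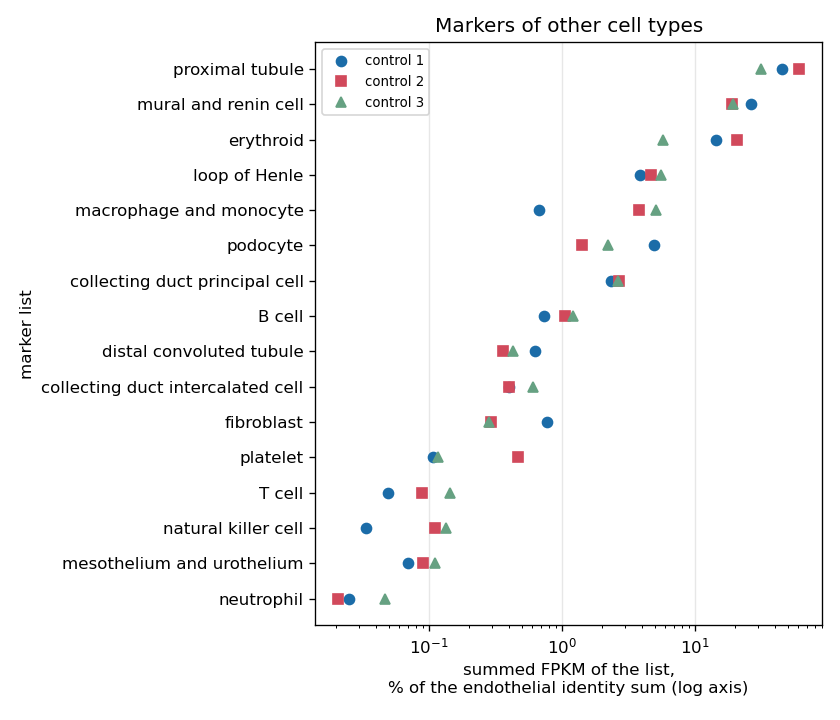
Summed FPKM of each list of other-cell markers as a percent of the summed endothelial identity list in the same library (log axis), for control mice 1, 2 and 3. Proximal tubule lists stand at 31.4 to 60.7%, podocyte genes at 4.93% in control 1 against 1.43 and 2.23%, and macrophage genes at 0.679% in control 1 against 3.78 and 5.10%; the adipocyte list, at 0, is not drawn.

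**Figure D4:**
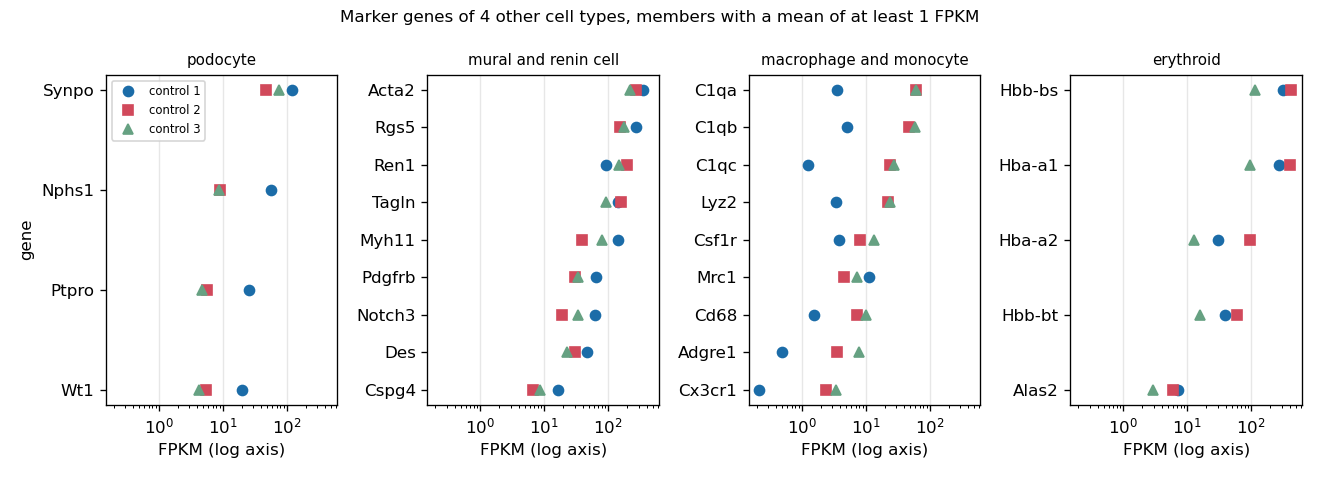
FPKM (log axis) of single podocyte, mural, macrophage and erythroid genes averaging 1 FPKM or more in control mice 1, 2 and 3. Control 1 lies to the right for all 4 podocyte genes and to the left for 8 of 9 macrophage genes, and control 3 lies to the left for all 5 erythroid genes.

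Over the 4517 genes averaging 10 FPKM or more, the median CV was 18.4%, with quartiles of 11.1% and 28.4%, while the median CV that counting alone would give was 2.79%. Without control 2 the median CV was 9.01%, and without control 1 or 3 it was 18.1% or 18.9%. Across 11487 genes averaging 1 FPKM or more, log2(FPKM + 1) correlated at 0.973 between controls 1 and 3, 0.955 between 2 and 3 and 0.940 between 1 and 2; these are descriptions across genes, which are not independent replicates.

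Among the 10 genes of highest CV, clone names aside, were Nphs1, Kap, Rhpn1, Ptpro, Snrpe, Hba-a2, Ddn, Dpp4 and Col4a3, from 86.2 to 110.4%. Of these, Nphs1 and Ptpro are on the podocyte list, Kap on the proximal tubule list and Hba-a2 on the erythroid list. The 10 of lowest CV were Mapre1, Hspd1, Wrnip1, Tsc22d1, Rab21, Armcx1, Lpcat3, Tpm4, Tmem50b and Pgam1. The microtubule end-binding gene Mapre1 was at 20.5, 20.6 and 20.5 FPKM and the mitochondrial chaperonin gene Hspd1 at 46.7, 46.5 and 46.5 FPKM. Their CVs, 0.140% and 0.242%, are below the counting CVs of 2.00% and 2.28%.

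Control 2 differed from the others by gene length. In the shortest of 5 equal groups of 11485 genes by exon length, with a median of 1759.5 bases, its median log2(FPKM + 1) lay 0.47 above the mean of the other 2 libraries. In the longest group, with a median of 9813 bases, it lay at -0.39. The same values ran from -0.17 to 0.32 in control 1 and from -0.32 to 0.06 in control 3. Each library is set against the other 2, so these trends are not independent. Ribosomal protein genes, which are short, were grouped by name after the data were seen. Control 2 was the highest library for 79 of the 79 with a mean of at least 1 FPKM, against 38.8% of all genes. It was at least 2-fold above both others for 42, against 2.56% of all genes. Rps15 was at 403, 957 and 406 and Rpl8 at 285, 673 and 300.4 FPKM. The long genes Syne1, Myh10 and Lama3 were picked for standing lowest in control 2, so they are extremes of this trend. Syne1, a nuclear envelope spectrin-repeat protein, was at 16.8, 4.24 and 15.4 FPKM. Myh10, a non-muscle myosin, was at 15.3, 4.44 and 12.1 FPKM and the laminin chain gene Lama3 at 17.7, 4.98 and 13.1 FPKM. RNA integrity and fragment size were not given in the sources used here, and their part in this trend was not tested.

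**Figure D5:**
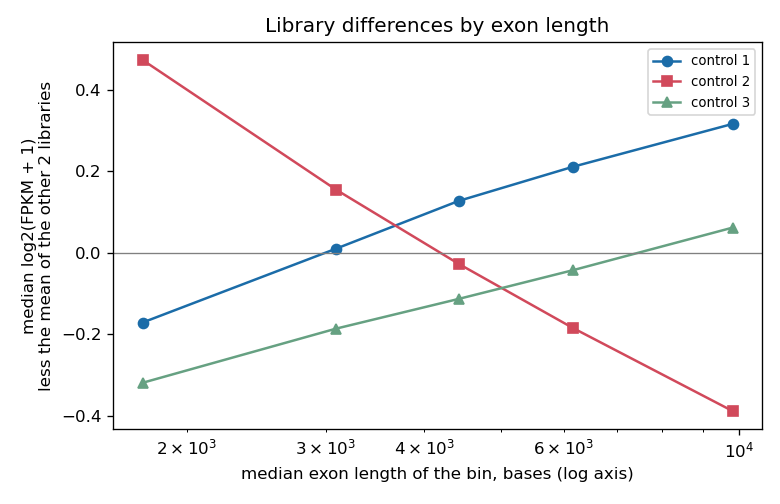
Median log2(FPKM + 1) of each control library less the mean of the other 2, in 5 equal groups of genes by exon length (log axis of the group's median length in bases). Control 2 runs from 0.47 in the shortest group to -0.39 in the longest, and controls 1 and 3 run the other way.

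With the length trend removed, an alternative chosen after the data were seen, the lists that set libraries apart kept their side. The podocyte median in control 1, 1.96 above the others on the log2(FPKM + 1) scale, was 1.74, and the macrophage median, -2.10, was -2.13. For mural genes in control 1 the values were 0.80 and 0.68, and for erythroid genes in control 3 -1.65 and -1.23. The ribosomal protein median in control 2 went from 1.13 to 0.65, and the proximal tubule median in control 2 from 0.58 to 0.53. The median CV over genes became 12.01%.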

How the data were processed

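RNA-seq of CD31-selected kidney cells was read in paired ends, per the labels. The authors deposited one table of FPKM values per gene, and the deposited FPKM were used as given. The submitters' processing notes name mm10, GRCm38 and DESeq2; no aligner, counter or strand setting is named there or in the labels. Whole fragments were recovered as FPKM times exon length (GENCODE M21) over the value of 1 fragment; of values under 1000 fragments, 98.6%, 98.5% and 98.6% were whole within 0.05. They served only depth and counting error. Only the 3 control libraries were used, labelled as separate mice, so no test between groups was made; levels are given as mean, SD and CV (n = 3), and library differences as log2(FPKM + 1) less the mean of the other 2. A gene counts as present at 1 FPKM or more in every library. The analysis used Python 3.11.15, numpy 2.4.6 and pandas 2.3.3, and was tested on simulated data.

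Members and gene lists were chosen with earlier results of these data known; ribosomal genes by name, functional-term classes and the removal of the length trend were added after the data were seen. Genes named by rule are the 25 of highest mean, the 7 markers, up to 5 highest and 3 lowest members per list, the 10 highest and 10 lowest CVs, and the 8 genes standing highest in each library, clone names left out; 3 list genes are not reported here and were taken out of their lists; other list members were named for their role after their values were seen. Promoters came from RefSeq (GRCm38.p6), searched for 3 motifs on both strands.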

Additional observations from a re-analysis of the deposited data

How the results depend on the processing

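The count of genes present in every library was 10830, and 6283 with a threshold of 5 FPKM. The share of the first 100 genes, 19.97% on average, was 15.3% of fragments and 11.5% of FPKM over genes of every type. With only members at 1 FPKM in every library, the median of ascending vasa recta and venous genes was 21.7 FPKM and that of lymphatic genes 9.31 FPKM, since fewer members remain. Leaving out 1 library at a time gave 40.4 to 46.6 FPKM for the glomerular median and 9.01 to 18.9% for the median CV, the lowest without control 2. The median CV was 25.1% with no filter on low values and 12.01% with the exon length trend removed. The cause of these shifts was not tested, and removing the length trend is no test of it.

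Deviations of a list in 1 library were followed where the median reached 0.5 on the log2(FPKM + 1) scale over at least 3 members, and for 5 smaller ones behind counts in the text (immediate early genes in controls 2 and 3, arterial genes in control 1, descending vasa recta and proximal tubule genes in control 3), all chosen after the values were seen. Of 75 alternatives for these 25 deviations, 69 moved by less than 1 SD over the member genes of the list, 6 moved further and 0 changed sign. That SD is over genes, which are not replicates, so it does not measure the spread between mice. Of the 73 other, smaller deviations 34 changed sign in at least 1 scaling or with the length trend removed, among them those of the endothelial identity and glomerular lists in each library. Rescaling set the nuclear protein-coding sums of the libraries equal. Low genes rest on few fragments: 3 fragments in a gene of 2000 bases are 0.0928, 0.107 and 0.0885 FPKM. No paired analysis was possible because only 1 group was described and no result comes from a test.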
